A study of Bos taurus with 11 samples.

Results

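The major milk protein genes of the cow are 6 in number, 4 for caseins (CSN1S1, CSN2, CSN1S2 and CSN3) and 2 for whey proteins (LALBA and PAEP). They were taken by a list of Ensembl identifiers that uses no count or fold change, from the 27607 genes in the table of RNA-Seq counts. The cells were primary bovine mammary epithelial cells (BMEC) from lactating Holstein cows, used at the third passage and differentiated with insulin, prolactin and hydrocortisone before treatment. All groups kept these hormones during the 60 h of treatment and differed only in 1 essential amino acid. CTL medium contained 80 µM lysine, 20 µM methionine and 40 µM histidine, LH contained 10 µM histidine, LK 20 µM lysine and LM 5 µM methionine, each with the other 2 amino acids as in CTL. The study used 2 CTL, 3 LH, 3 LK and 2 LM libraries and left out CTL replicate 3 and LM replicate 2, which did not pass its quality checks. LM replicate 2 is shown apart here, and CTL replicate 3 was not analysed here. Replicates were cultures of the same kind of cell, and whether they came from separate cows is not given in the sources used here, so the spread between them may be partly technical.

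Milk protein genes are the end products of the lactogenic programme of the alveolar epithelium. Prolactin acts through its receptor, the kinase JAK2 and the transcription factor STAT5, together with insulin and glucocorticoid, to raise their transcription, and in the lactating gland their mRNAs are among the most abundant. The αs1-, αs2- and β-caseins, encoded by CSN1S1, CSN1S2 and CSN2, bind calcium phosphate and form the body of the casein micelle. The κ-casein encoded by CSN3 coats the micelle and keeps it in suspension, and it is the casein cleaved by chymosin when milk clots. α-Lactalbumin, encoded by LALBA, is the regulatory subunit of lactose synthase. β-Lactoglobulin, encoded by PAEP, is a lipocalin and the main whey protein of ruminant milk.

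Between 199231024 and 278354731 reads were counted on genes in the 10 libraries that the study used. LM replicate 2 had 173982461 reads. It also had the largest share of missing genes, as 44.2% of genes with a mean normalized count of 50 to 100 in the 10 libraries had a count of 0 there. Measured against the mean of the remaining libraries, this share was 32.1% and 20.6% in the CTL libraries, 26.1% and 15.1% in LM replicates 1 and 3, 2.93% to 10.6% in LH and 1.66% to 8.67% in LK. The table of counts pairs no names with identifiers, so that the symbols of the 6 genes are those given with the list and were not checked against an annotation.

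At this depth, reads were counted on only 1 of the 6 genes in the 10 libraries, which was CSN3 (ENSBTAG00000039787). CSN1S1 (ENSBTAG00000007695), CSN2 (ENSBTAG00000002632), CSN1S2 (ENSBTAG00000005005), LALBA (ENSBTAG00000005859) and PAEP (ENSBTAG00000014678) had 0 reads in each of the 10 libraries, CTL included. A count of 0 allows up to 3 reads, or 0.0108 to 0.0151 CPM (reads per 1000000 reads counted) in a library. Over the 2416011721 reads of the 10 libraries together it allows up to 0.00124 CPM. These limits cover counting error only and take the reads of a pair as independent. They do not cover the zeros seen in genes with 50 to 100 counts elsewhere, which made up as much as 32.1% of such genes in a CTL library, so a true level above the limits is possible. No change with amino acid supply was detectable for these 5 genes at this depth. Whether the annotation or the options of counting played a part in these zeros could not be tested from the counts. A bulk measurement cannot tell few expressing cells from little mRNA per cell. LALBA and CSN2, which are also defining markers of the secretory cell, were thus at 0 in cells labelled as differentiated mammary epithelium, and other epithelial markers were not looked up for lack of names.

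**Figure D1:**
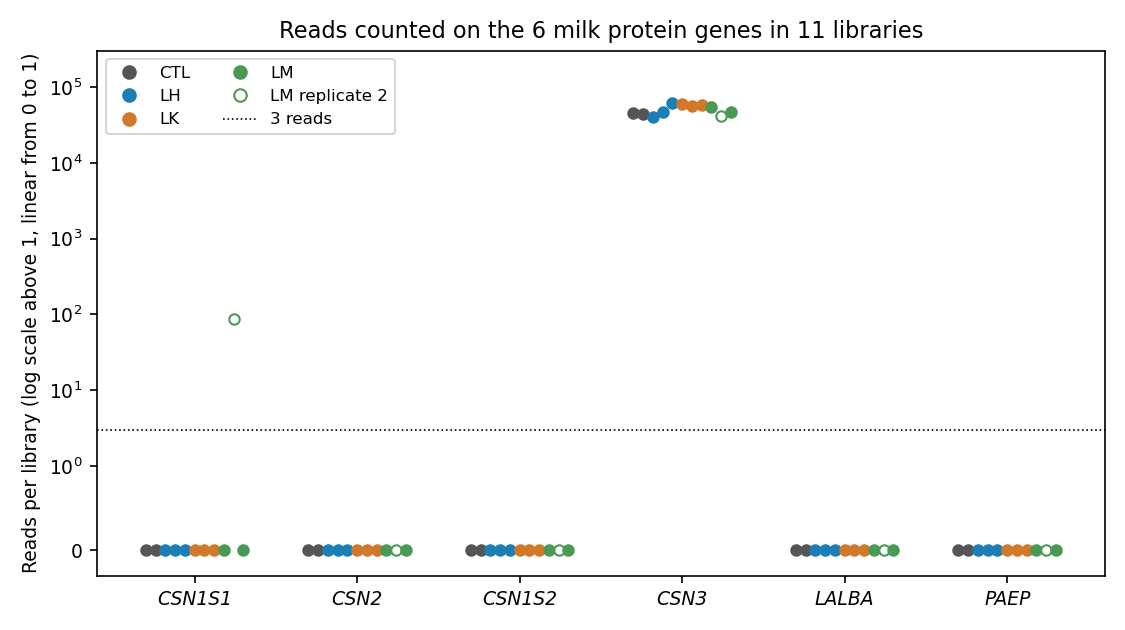
Reads counted per library (vertical axis, logarithmic above 1) on each of the 6 milk protein genes, with 1 point per library coloured by medium and LM replicate 2 as an open circle. CSN3 had 39721 to 60956 reads in every library, CSN1S1 had 86 reads in LM replicate 2 alone, and the other points lie at 0, below the dotted line at 3 reads.

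In LM replicate 2, CSN2, CSN1S2, LALBA and PAEP were again at 0, so that 4 of the 6 genes had no read in any of the 11 libraries. CSN1S1 had 86 reads there, a level of 0.494 CPM with an exact binomial 95% interval of 0.395 to 0.611 CPM. This interval is too narrow, since both reads of a pair were mostly counted as separate reads. It was 1 of 44 genes with reads in LM replicate 2 and in none of the other 10 libraries, and 12 of these 44 genes had at least 86 reads. The number of such genes found in a single library ranged from 44 to 258 over the 11 libraries, and those with at least 86 reads from 0 to 17. Genes with no read at all were common in the table, numbering 8596 (31.1%) over the 11 libraries and 8640 (31.3%) over the 10.

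The 4 casein genes lie in 1 cluster. In the order of the RefSeq annotation of ARS-UCD2.0, CSN1S1 is followed by CSN2, HSTN, STATH, CSN1S2, PRR27, ODAM and CSN3, so that 4 other protein-coding genes are placed among the caseins and CSN3 is at the end of the row. LALBA and PAEP are on 2 other chromosomes. The counts were made on another assembly, ARS-UCD1.2, and no coordinates are given for this reason. Within the cluster, reads were thus counted on the gene for κ-casein, whereas the genes for the calcium-sensitive caseins had none in the 10 libraries.

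CSN3 was a well expressed gene in these cultures. Its 511459 reads over the 10 libraries gave a mean of 211 CPM after TMM normalization, which placed it 764th of 27607 genes, with 97.2% of genes below it. By raw counts, its rank within a library lay between 644 and 908. The reads on CSN3, and so on all 6 genes together, made up between 0.0182% and 0.0233% of the reads of each of the 10 libraries. Ranks by CPM are not corrected for the length of the transcript, so they place the number of reads and not the number of molecules.

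**Figure D2:**
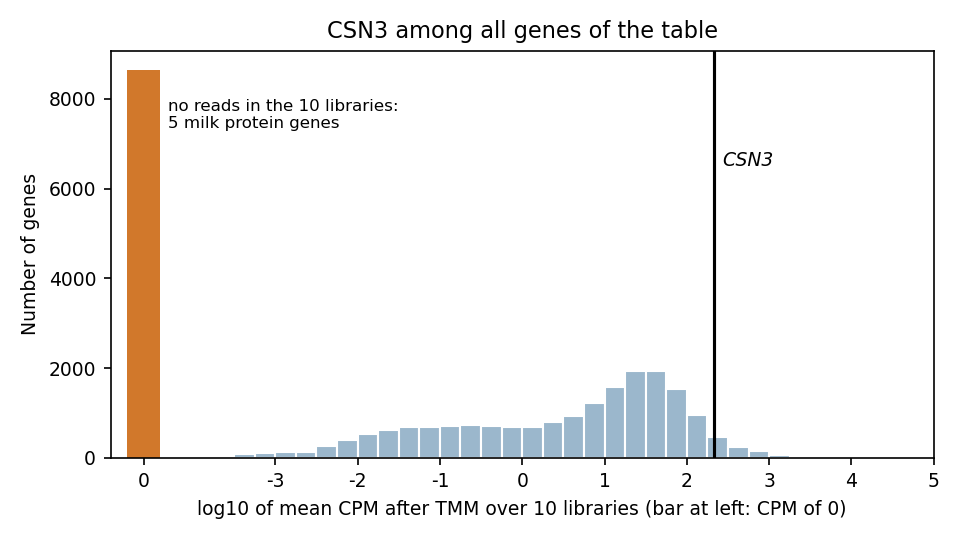
Number of genes (vertical axis) by the log10 of mean CPM after TMM over the 10 libraries (horizontal axis), with genes at 0 as a separate bar on the left. The 8640 genes without reads include 5 milk protein genes, and the line marks CSN3 at 211 CPM, above 97.2% of genes.

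Between media, CSN3 was lowest in CTL and highest in LK. It had 191.9 CPM in CTL replicate 1 and 184.8 CPM in CTL replicate 2. In LH replicates 1, 2 and 3 it had 206.5, 200.0 and 222.8 CPM. In LK replicates 1, 2 and 3 it had 230.5, 230.3 and 230.0 CPM, and in LM replicates 1 and 3 it had 206.2 and 207.0 CPM. Each of the 8 libraries from a deficient medium was therefore above both CTL libraries, and the 3 LK libraries were above the other 7. The LM values lay inside the range of LH. LM replicate 2, placed on the same scale, had 250.6 CPM and was above each of the 10 other libraries. The mean (± SD) was 188.4 ± 5.02 CPM for the 2 CTL libraries, 209.8 ± 11.8 CPM for the 3 LH libraries, 230.3 ± 0.252 CPM for the 3 LK libraries and 206.6 ± 0.566 CPM for the 2 LM libraries. The SD within LK and within LM was smaller than the 0.888 to 0.965 CPM that counting error gives for these libraries with reads taken as independent. The tests did not use these SDs but a spread estimated over the 4 groups and moderated across genes.

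**Figure D3:**
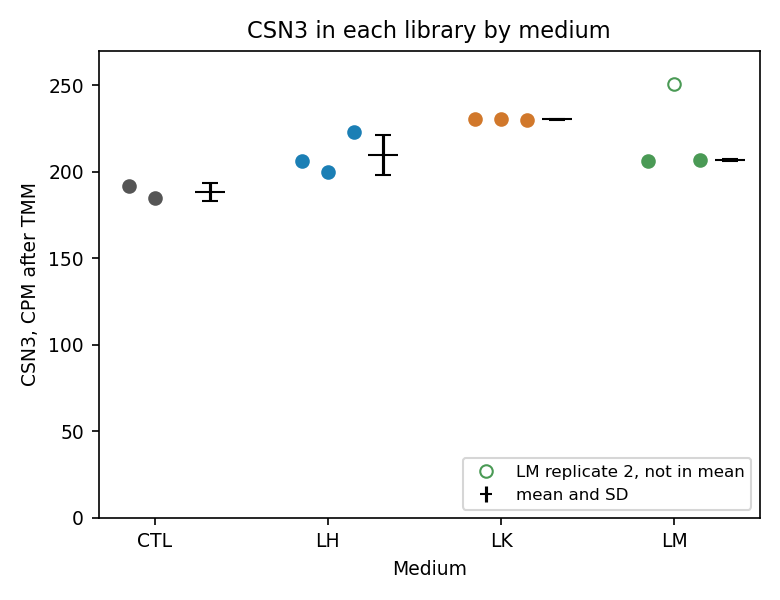
CSN3 in CPM after TMM (vertical axis, from 0) in each library by medium, with the mean and SD of the libraries in the fit beside the points. CTL libraries sit at 184.8 and 191.9 CPM, LH and LM libraries between 200.0 and 222.8, LK libraries at about 230, and the open circle is LM replicate 2 at 250.6.

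A difference among the 4 media was tested for CSN3 first without choosing a pair. edgeR's quasi-likelihood test across all genes gave an adjusted p of 0.0143, where 16.0% of the 18345 tested genes had a false discovery rate (FDR) under 0.05. The exact permutation test over all 25200 labelings of the 10 libraries, applied to log2 CPM of this gene, gave p = 0.0024, unadjusted. Differences between media made up 87.8% of the variation in log2 CPM of CSN3 among the 10 libraries, a share not corrected for the number of groups. With LM replicate 2 added to the fit, however, the adjusted p of edgeR was 0.245. It was also above the threshold without CTL replicate 2 (0.076) and without LK replicate 1 (0.060), 2 (0.0895) or 3 (0.0627).

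Low lysine gave the 1 call among the comparisons of single media. CSN3 was higher in LK than in CTL by a log2 fold change of 0.29 (standard error 0.07, 95% interval 0.15 to 0.43), which is 1.22 times the level in CTL. The adjusted p of edgeR's quasi-likelihood test was 0.0021, and 3 of 3 LK libraries were above 2 of 2 CTL libraries. Of all tested genes, 13.7% passed an FDR of 0.05 in this comparison, and the size of the change in CSN3 was larger than in 50.7% of all tested genes. At the thresholds of the study, which also ask for a log2 fold change of 1 or more in either direction, CSN3 was not called. At these thresholds 3.12% of all tested genes were called (572 genes, against 394 with all 11 libraries fitted and 842 by DESeq2). The other 5 genes had no reads in the 10 libraries and were not tested. Only CSN3 could therefore be called. Its call at an FDR of 0.05 rested on leaving LM replicate 2 out of the fit. With the 11 libraries fitted together the log2 fold change was 0.28 (standard error 0.10), and the adjusted p of edgeR was 0.104. The CTL libraries also had larger shares of missing genes than the LK libraries, the part of which in the difference was not tested. LM replicate 2, from another medium, had the largest share of missing genes and the highest CSN3 level. Whether these go together cannot be read from 1 library.

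Low histidine and low methionine gave smaller differences that did not pass. CSN3 was 1.11 times the CTL level in LH, a log2 difference of 0.16 (standard error 0.07, 95% interval 0.01 to 0.30), with an edgeR adjusted p of 0.228. In LM it was 1.10 times the CTL level, a log2 difference of 0.13 (standard error 0.08, 95% interval -0.02 to 0.29), with an edgeR adjusted p of 0.358. The upper ends of these 95% intervals, which are not adjusted for the number of genes, were 1.23 times the CTL level for LH and 1.22 times for LM. The 3 comparisons with CTL share the same 2 CTL libraries. At an FDR of 0.05, 5.73% of all tested genes passed for LH and 7.45% for LM. At the thresholds of the study these shares were 1.17% and 1.47%, and CSN3 was not called. Both shares moved with the setting. They came from 214 and 269 genes, against 100 and 158 with all 11 libraries fitted and 398 and 541 by DESeq2. In the fit with LM replicate 2 added, the log2 difference of LM from CTL was 0.23, with an edgeR adjusted p of 0.213.

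**Figure D4:**
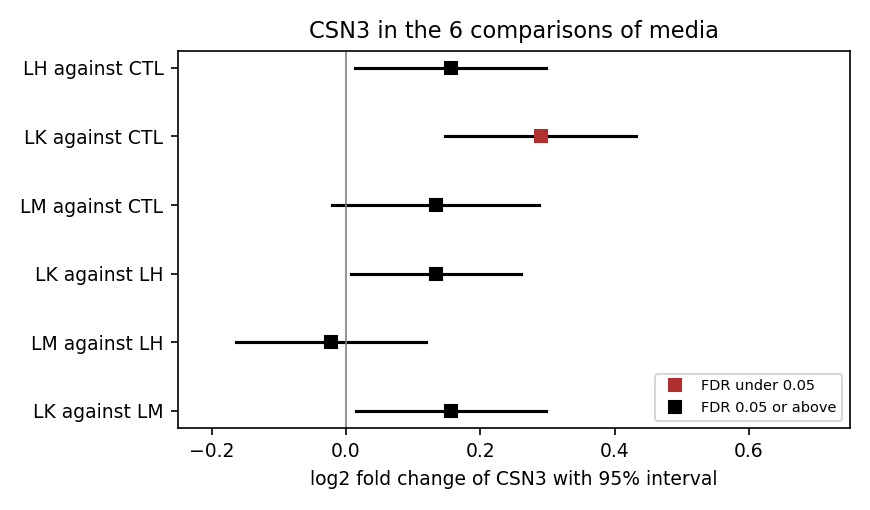
Log2 fold change of CSN3 (horizontal axis) with its 95% interval in the 6 comparisons of media, from edgeR's fit of the 10 libraries. Only LK against CTL, at 0.29, passed an FDR of 0.05, and the intervals of LM against CTL and LM against LH span 0.

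The 3 deficient media were then compared with each other, which asks whether the response of CSN3 to lysine stood apart. Its log2 level in LK was higher than in LH by 0.13 (standard error 0.06, 95% interval 0.01 to 0.26) and higher than in LM by 0.16 (standard error 0.07, 95% interval 0.01 to 0.30). Neither difference passed the adjustment over all genes, with edgeR adjusted p-values of 0.251 and 0.234. The difference between LK and LH was 0.09 on the log2 scale without LH replicate 2 (edgeR adjusted p = 0.602). The log2 level in LM differed from that in LH by -0.02 (standard error 0.07, 95% interval -0.16 to 0.12, edgeR adjusted p = 0.97). Among all tested genes, 7.21%, 5.38% and 2.44% had an FDR under 0.05 between LK and LH, between LK and LM and between LM and LH. With the fold change threshold added, the shares were 0.496%, 0.861% and 0.164%, and CSN3 was not among the genes called. These shares came from 91, 158 and 30 genes. With all 11 libraries fitted, 47 genes were called between LK and LH, and by DESeq2 310 were called between LK and LM. Between LM and LH, 11 genes were called with all 11 libraries fitted and 160 by DESeq2. In the order CTL, LM, LH and LK, no pair of neighbouring media passed the threshold, whereas the ends of the order did. LM replicate 2 was above the LK libraries, and with it in the fit the log2 difference between LK and LM was 0.05 (edgeR adjusted p = 0.823).

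**Figure D5:**
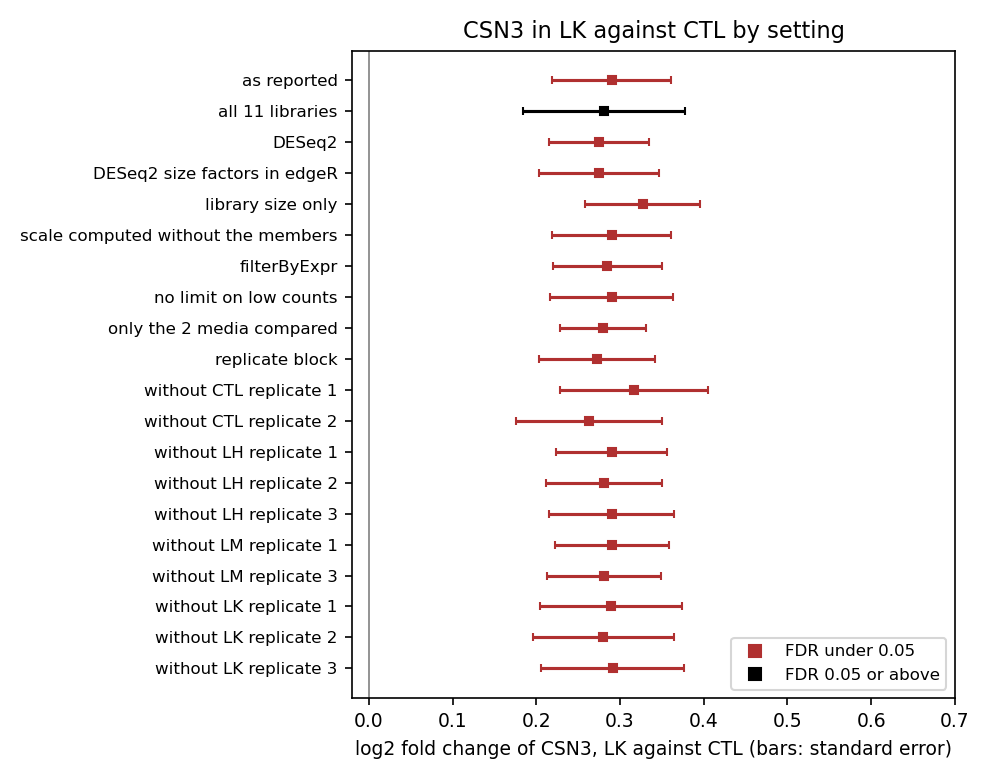
Log2 fold change of CSN3 in LK relative to CTL (horizontal axis, bars are standard errors) under each setting of the fit. Values lay between 0.26 and 0.33, and the setting with all 11 libraries, in black, was the 1 setting with an FDR above 0.05.

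The spread of CSN3 over the 10 libraries was that of an ordinary gene at its level. The SD of its log2 CPM was 0.114, against a median of 0.111 over the 1417 genes whose mean was between 0.5 and 2 times its own, of which 53.1% had a smaller SD. Since only CSN3 had reads, no correlation between milk protein genes could be computed. Among 12746 other genes averaging at least 200 normalized counts, the pattern of log2 CPM most like that of CSN3 over the 10 libraries was that of ENSBTAG00000019716, with a Pearson's r of 0.977, followed by ENSBTAG00000046324 with 0.971. ENSBTAG00000019716 had means of 3.92 CPM in CTL, 6.84 in LH, 9.99 in LK and 6.32 in LM, the same order of the ends as in CSN3 at a lower level. ENSBTAG00000046324 had means of 1.33 CPM in CTL and 8.36 in LK. The most opposite patterns were those of ENSBTAG00000015114 (r = -0.972), with means of 688.9 CPM in CTL and 456.9 in LK, and ENSBTAG00000013760 (r = -0.965). In all, r was above 0.8 for 438 genes and below -0.8 for 393. The 10 libraries share 4 media, so these values describe the likeness of patterns and were not tested.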

How the data were processed

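Per the labels and the methods, fastp, STAR (on ARS-UCD1.2) and featureCounts were used by the authors, whose options for strand and read pairs are not stated. They deposited raw, unnormalized counts for each Ensembl gene. Of the values from 1 to 20, 67.5% to 76.2% per library were even, and the total in each library exceeds the number of read pairs sequenced. Both reads of most pairs were thus counted separately. The binomial interval of CSN1S1 and the limits of 0, which treat reads as independent, are too narrow. These cover counting error only, as amplified reads lacking molecular identifiers do not count separate molecules.

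Members and gene lists were chosen with earlier results of these data known. Counts were fitted with edgeR 4.0.16 in R 4.3.3 (quasi-likelihood test, TMM, 4 groups, 10 libraries) for the 18345 genes with more than 10 reads, a limit that 1 of the 6 members passed. Benjamini-Hochberg adjustment covered all tested genes, and standard errors came from the F statistic. CPM used TMM, with a prior count of 2 for log2 values. All 6 genes were named by rule, with the 2 highest and 2 lowest correlations to the member with the most reads. DESeq2 1.42.0 was an alternative. Both tools were tested on simulated data. No replicate pair agreed within sampling noise, with chi-square values of 42.8 to 433.6 per gene. Lists of lactogenic, secretory, amino acid response and cell type marker genes had been fixed by symbol. They were left out because 0 of 37063 genes in the RefSeq table carry an Ensembl identifier. No sequence was used. Figures were drawn with matplotlib 3.10.9.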

Additional observations from a re-analysis of the deposited data

Results flagged for a closer look

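LM replicate 2 was outside the comparisons, and 2 of its values were above those of the control libraries. CSN1S1 had 86 reads in it, and 0 in both CTL libraries and in LM replicates 1 and 3. CSN3 had 250.6 CPM, against 184.8 and 191.9 CPM in CTL and 206.2 and 207.0 CPM in LM replicates 1 and 3. Neither value was reproduced in LM replicates 1 and 3. In the fit with this library added, no milk protein gene was called in LM relative to CTL by edgeR. The groups held 2 or 3 libraries in the fit, so that none was tested for an outlying library.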

How the results depend on the processing

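In the 10 libraries CSN3 overlapped only in LM against LH, so other signs were nearly fixed. Its log2 fold change there was -0.06 to 0.07. In LK relative to CTL it was 0.26 to 0.33, with edgeR or DESeq2 adjusted p-values of 9.31e-05 to 0.104. It passed in 18 of 19. With all 11 libraries, 0 members were called in LK against CTL and 0 in the test among the 4 media, where 1 member was called in each with 10 libraries. At an FDR of 0.05 that fit called 271, 1110 and 685 of all genes in LH, LK and LM relative to CTL, against 1051, 2508 and 1366. At the thresholds of the study it called 100 genes in LH and 158 in LM and DESeq2 called 398 and 541, against 214 and 269. Between LK and LH and between LM and LH the fit of 11 libraries called 345 and 116 at an FDR of 0.05, against 1323 and 447. With single libraries left out, the counts at an FDR of 0.05 relative to CTL were 707 to 1209 for LH, 1856 to 3025 for LK and 714 (without LM replicate 1) to 1769 for LM. Without LM replicate 1, those between LK and LM and between LM and LH were 378 and 135, against 987 and 447. At the thresholds of the study, LH, LK and LM had 449, 889 and 490 calls without CTL replicate 2, against 214, 572 and 269. There were 47 between LK and LH with all 11 libraries, against 91, and 310 between LK and LM by DESeq2, against 158. Between LM and LH there were 19 to 85 with single libraries left out and 160 by DESeq2, against 30. The cause was not tested. With single libraries left out, 0 to 1 members were called among the 4 media. The edgeR adjusted p of CSN3 in that test was then 0.0022 to 0.0895, against 0.245 with all 11 libraries and 0.001 by DESeq2. For LH and LM relative to CTL, 0 members were called in every alternative, with the smallest adjusted p-values at 0.11 and 0.126. Same-numbered replicates did not deviate together (r between -0.03 and 0.08 over 12 pairs). With the replicate block, the log2 fold change of CSN3 in LK was 0.27 and no call changed. By library size alone, the mean of CSN3 was 232.7 CPM in LK and 211.1 in LM. For the 5 genes at 0, the bounds given above cover counting error only, and 2 CTL libraries limit each comparison with CTL.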
